A study of Homo sapiens with 4 samples.

Results

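The 9 genes described here serve the presentation of antigen by MHC class I, and all 9 were measured, among 22458 named genes of the array. They were taken by gene symbol: HLA-B, HLA-C, HLA-E, HLA-F, B2M, TAP1, TAP2, TAPBP and NLRC5. Affymetrix arrays were run on total RNA of LN229, an established line of human glioblastoma cells, taken 48 h after the cells received siRNA. The control pool was nontargeting (NT, 2 arrays) and the other pool targeted RAB38 (siRAB38, 2 arrays). RAB38 is a small GTPase of membrane trafficking to lysosome-related organelles. Serum was absent during transfection in both groups and was then brought to 1.5%, and neither group had any other treatment. An untransfected culture is not among these arrays, so an effect of transfection itself that both groups share cannot be seen. The study's general note on statistics uses n for independent experiments and its legends give the arrays an n of 2, while the sample labels do not tie an array to a culture, so each p-value reflects the spread among these arrays alone, possibly a technical one. In such bulk RNA a lower value can mean fewer cells that express a gene or less RNA per cell, and these cannot be told apart.

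MHC class I molecules show peptides from inside the cell to cytotoxic T cells and natural killer cells. The heavy chain (HLA-B, HLA-C, HLA-E, HLA-F) folds with the light chain β2-microglobulin (B2M). The transporter TAP1/TAP2 brings peptides made by the proteasome into the endoplasmic reticulum, and tapasin (TAPBP) holds the empty heavy chain at that transporter. NLRC5 is the transactivator that switches most of these genes on, and interferons raise the expression of the whole group. Tumor cells, glioblastoma cells included, often carry low levels of class I.

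The promoters are shown first because class I genes are known to share elements for interferon regulatory factors and for the NLRC5 enhanceosome. Whether these elements bear on the array values was not tested. Of the 9 genes, 7 were matched by symbol in a RefSeq promoter table of GRCh38.p14; HLA-E and NLRC5 were not. The 250 bases before each start were searched on both strands for 4 motifs. GAAANNGAAA is the repeat within the interferon-stimulated response element and is called the full form here. AANNGAAA is the shorter core bound by interferon regulatory factors, which lies inside the full form. TGATTGG is a form of the Y box and TGACG the center of the X2 box, both boxes being parts of the enhanceosome site. The AANNGAAA core was chosen after the full form was seen to be absent from HLA-B and HLA-C. Among all 35116 windows of the same length, GAAANNGAAA stood in 3.02%, AANNGAAA in 20.3%, TGATTGG in 6.62% and TGACG in 21.2%. Capitals mark the motifs in the stretches below, each written 5′ to 3′ along the strand of its gene. The 2 interferon motifs overlap, so that 1 run of capitals can hold both.
HLA-B (chr6:31357219-31357344, minus strand): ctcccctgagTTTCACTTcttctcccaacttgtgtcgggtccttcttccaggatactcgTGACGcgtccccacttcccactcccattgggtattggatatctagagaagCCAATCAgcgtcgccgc
HLA-C (chr6:31272132-31272253, minus strand): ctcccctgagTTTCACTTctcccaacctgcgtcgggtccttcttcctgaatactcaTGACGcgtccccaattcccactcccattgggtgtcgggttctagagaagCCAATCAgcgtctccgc
HLA-F (chr6:29723268-29723393, plus strand): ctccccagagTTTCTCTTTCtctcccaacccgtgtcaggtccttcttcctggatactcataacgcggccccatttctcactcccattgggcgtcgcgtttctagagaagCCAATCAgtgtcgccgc
B2M (chr15:44711363-44711482, plus strand): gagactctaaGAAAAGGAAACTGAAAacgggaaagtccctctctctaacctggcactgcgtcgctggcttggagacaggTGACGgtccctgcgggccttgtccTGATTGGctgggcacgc
TAP1 (chr6:32853813-32853848, minus strand): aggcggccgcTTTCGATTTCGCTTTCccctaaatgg
TAP2 (chr6:32838760-32838811, minus strand): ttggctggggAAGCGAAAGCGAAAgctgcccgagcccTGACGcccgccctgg
TAPBP (chr6:33314079-33314108, minus strand): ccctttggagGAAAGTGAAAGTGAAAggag

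All 7 matched genes held the AANNGAAA core, and 5 of them (HLA-F, B2M, TAP1, TAP2 and TAPBP) held the full form. The letters of the Y box motif stood in 4 genes, as TGATTGG in B2M and as the reverse complement CCAATCA in the 3 matched heavy chains. Whether the heavy chain matches are the Y box of the enhanceosome site was not tested. The TGACG letters stood in HLA-B, HLA-C, B2M and TAP2. In HLA-B, HLA-C and B2M the interferon motif came first along the gene strand, then TGACG, then the Y box letters closest to the start. Strand and spacing were not shared, as the Y box letters stood reversed in HLA-B and HLA-C but not in B2M. TGACG began 106 (HLA-B), 105 (HLA-C) and 75 (B2M) bases before the start, and the Y box letters 56, 56 and 51. TAP1 has a further start in the table whose window held none of the motifs. The TAP1 window shown here and that of PSMB9, an immunoproteasome gene that runs the other way, overlap by 13 bases. These are reference sequences, not those of LN229, and a match of letters is a description and not a site shown to be bound.

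RAB38 itself was lower on both siRAB38 arrays, and more so on array 1. Its log2 values were 4.69 and 4.78 on the NT arrays and 2.52 and 3.43 on the siRAB38 arrays, so that siRAB38 array 1 held 21.6% and array 2 held 40.5% of the NT mean. The log2 fold change was -1.76 ± 0.30 (standard error of the fit, SE, limma adjusted p = 0.72). Values are log2 values made by RMA, which fits every array to one distribution, and a level is read only against the same gene on another array. Glial and mesenchymal markers of such lines were present, with VIM between 11.25 and 11.36, while GFAP lay between 2.81 and 3.35, below the array medians of 3.47 to 3.51. Of 6 leukocyte markers, PTPRC, CD3E, CD14, AIF1 and LYZ lay between 1.23 and 2.83 on all arrays. CD68, a lysosomal protein that is not restricted to leukocytes, lay between 7.51 and 8.27 and had the array order of the class I genes described next, with 8.27 and 7.58 on the NT arrays and 7.51 and 7.98 on the siRAB38 arrays. The part of CD68-expressing cells in the class I values was not tested. The endothelial markers PECAM1, VWF and CDH5 lay between 1.64 and 2.37.

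HLA-B, a classical heavy chain that presents peptides to cytotoxic T cells, had log2 values 9.16 and 8.46 on the NT arrays and 7.96 and 8.55 on the siRAB38 arrays. Its NT array 1 was highest and its siRAB38 array 1 lowest, while the remaining arrays of the 2 groups lay close together and in reversed order, so the groups overlapped. NT arrays averaged 8.81 ± 0.50 (SD, n = 2) and siRAB38 arrays 8.25 ± 0.41 (SD, n = 2). This is a log2 fold change of -0.56 ± 0.30 (SE, 95% confidence interval -1.33 to 0.22, limma adjusted p = 0.75), or 68.0% of the NT level, the lowest point estimate of the 9 genes.

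HLA-C, the other classical heavy chain measured and also a ligand of killer cell receptors, had log2 values 8.83 and 8.17 on the NT arrays and 8.04 and 8.37 on the siRAB38 arrays. The same 2 arrays stood at the ends of its range, and the groups overlapped. Its log2 fold change was -0.30 ± 0.25 (SE, 95% interval -0.94 to 0.35, limma adjusted p = 0.84). The HLA heavy chain genes are related in sequence and vary between people, so signal shared among them by cross-hybridization cannot be told apart from their own.

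HLA-E, a nonclassical heavy chain that presents leader peptides of other class I chains to natural killer cells, had log2 values 8.27 and 7.83 on the NT arrays and 7.52 and 7.91 on the siRAB38 arrays. HLA-F, a nonclassical chain held largely inside the cell, had 7.19 and 6.65 on the NT arrays and 6.14 and 6.73 on the siRAB38 arrays. In both genes NT array 1 was highest, siRAB38 array 1 was lowest and siRAB38 array 2 lay just above NT array 2, by 0.08 on the log2 scale in each. The log2 fold change was -0.33 for HLA-E (standard error 0.21, limma adjusted p = 0.78) and -0.49 for HLA-F (standard error 0.27, limma adjusted p = 0.75).

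B2M, the light chain common to all class I molecules, had log2 values 10.82 and 10.46 on the NT arrays and 10.01 and 10.70 on the siRAB38 arrays. Its siRAB38 array 2 lay between the NT arrays, above their mean by 0.06, whereas siRAB38 array 1 lay below that mean by a log2 difference of -0.63. The log2 fold change was -0.29 ± 0.26 (SE, 95% interval -0.96 to 0.38, limma adjusted p = 0.86).

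The peptide transporter subunits gave smaller differences between groups and wide ones within siRAB38. TAP1 had log2 values 7.88 and 7.28 on the NT arrays and 7.02 and 7.81 on the siRAB38 arrays, and TAP2 had 6.02 and 5.72 on the NT arrays and 5.38 and 5.96 on the siRAB38 arrays. For both subunits siRAB38 array 2 was close to NT array 1 and siRAB38 array 1 was the lowest array. TAP1 on siRAB38 array 2 was 1.72 times its value on siRAB38 array 1, the widest ratio within siRAB38 among the 9 genes. The log2 fold change was -0.16 for TAP1 (standard error 0.32, limma adjusted p = 0.95) and -0.20 for TAP2 (standard error 0.23, limma adjusted p = 0.89).

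TAPBP, which encodes tapasin, the chaperone that bridges the heavy chain and TAP, varied least. It had log2 values 9.08 and 8.75 on the NT arrays and 8.72 and 8.89 on the siRAB38 arrays, a range of 0.37 over the arrays. NT array 2 and siRAB38 array 1 were nearly level in this gene, and its log2 fold change was -0.11 ± 0.15 (SE, limma adjusted p = 0.91).

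NLRC5, the class I transactivator, had log2 values 3.68 and 3.19 on the NT arrays and 3.01 and 3.75 on the siRAB38 arrays. It was the 1 gene of the 9 in which siRAB38 array 2 and not NT array 1 was highest. Its values lay close to the array medians of 3.47 to 3.51. Group means were 3.44 ± 0.34 (SD, n = 2) for NT and 3.38 ± 0.52 (SD, n = 2) for siRAB38, so that the log2 fold change was -0.06 ± 0.29 (SE, 95% interval -0.81 to 0.69, limma adjusted p = 0.99).

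**Figure D1:**
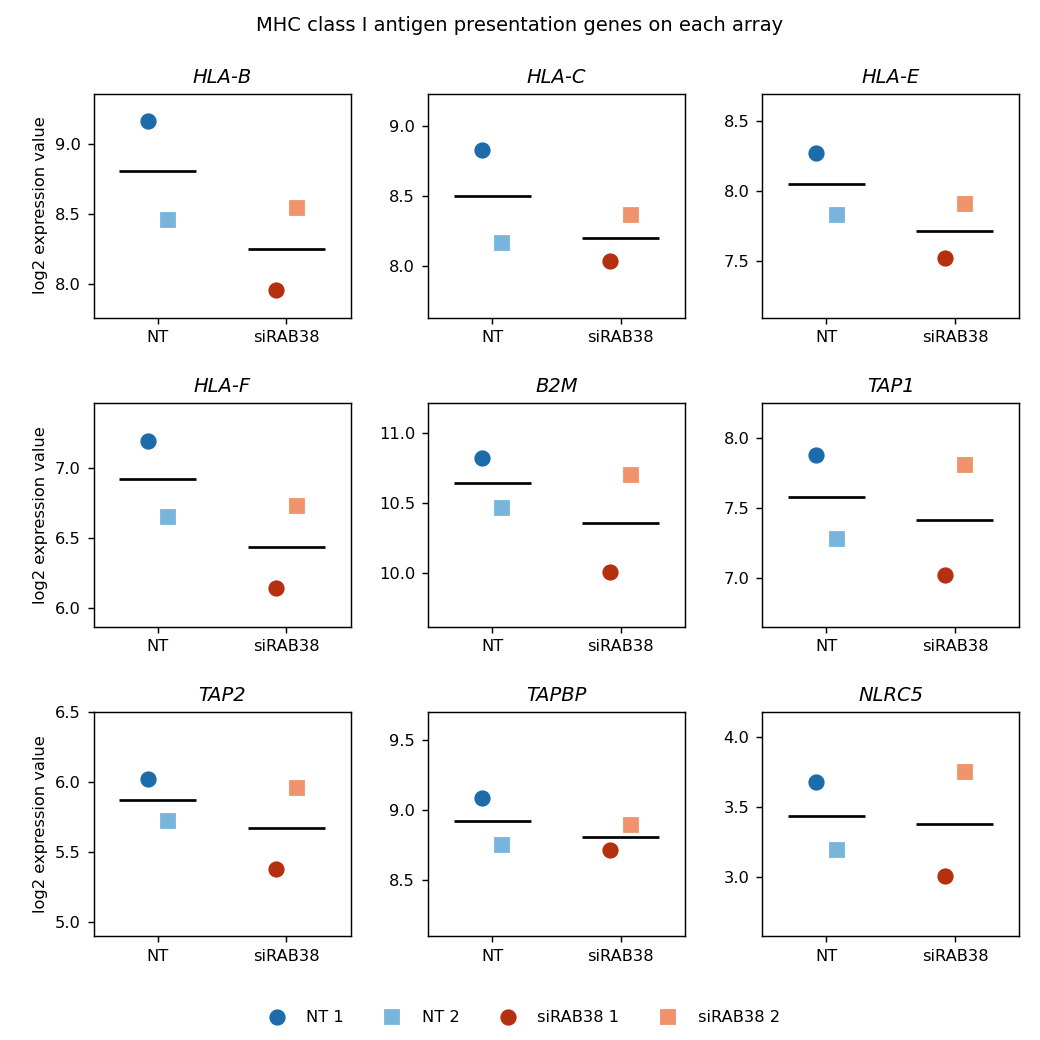
Log2 expression value (y axis, each panel spanning the same height) of the 9 genes in the NT and siRAB38 groups, with 1 point per array and a line at the group mean. In each panel siRAB38 1 is the lowest point, and the points of the 2 groups overlap.

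No member passed an adjusted p of 0.05 in siRAB38 against NT. Over all genes 0.0% passed, the smallest adjusted p being 0.70, and 6.85% had an unadjusted p under 0.05 (1539 genes by limma, 1473 by the methods' t-test). None of the 9 members did, and their adjusted p ran from 0.75 to 0.99. In 0 of 9 members did both siRAB38 arrays lie below both NT arrays, where this held for 17.2% of all genes, and in 0 of 9 did both lie above (18.8% of all genes). All 9 fold changes lay below 0, against 48.4% of all genes, and the median log2 fold change was -0.29 against 0.005 over all genes. The members are expressed together on these arrays, so 9 signs in 1 direction are not 9 separate observations. The direction rested on 2 arrays. Without siRAB38 array 1 the median was -0.03 and 5 of 9 members lay below 0, and without NT array 1 the median was -0.05 and again 5 of 9 did. It was -0.47 without NT array 2 and -0.53 without siRAB38 array 2, with 9 of 9 below 0 each time. With 2 arrays against 2, an exact permutation test of a single value gives no two-sided p below 0.333.

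**Figure D2:**
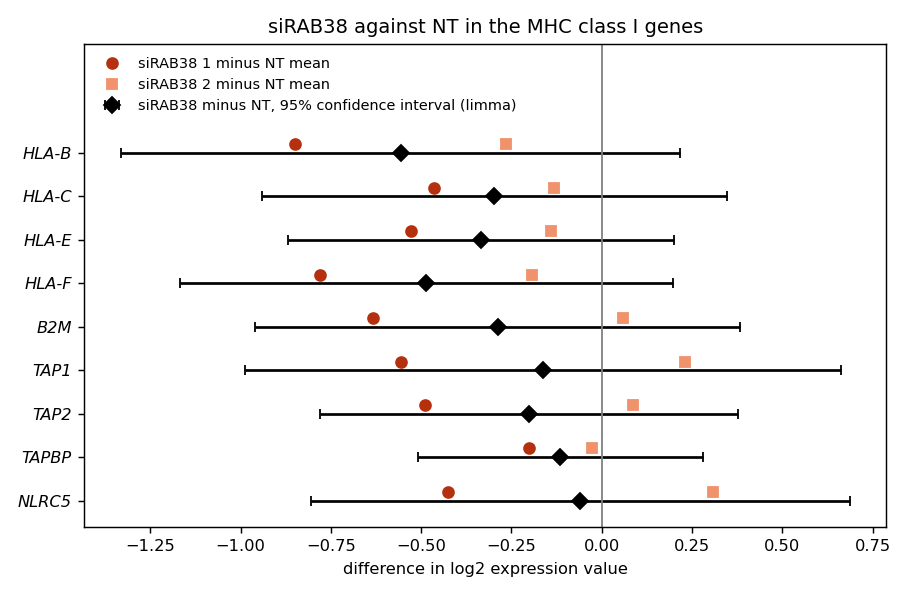
Difference in log2 expression value between siRAB38 and NT (x axis) for each gene (y axis), with the limma estimate and its 95% confidence interval as diamond and bar, and each siRAB38 array minus the NT mean as circle and square. All 9 intervals include 0, and siRAB38 1 lies left of siRAB38 2 in every row.

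The heavy chains and most other members lay on different sides of the NT mean on siRAB38 array 2, a difference that was not tested. On that array the 4 heavy chains held between 83.3% (HLA-B) and 91.3% (HLA-C) of the NT mean. B2M held 104%, TAP2 106%, TAP1 117% and NLRC5 124%, with TAPBP at 98.1%. On siRAB38 array 1 all 9 lay below the NT mean, from 55.5% for HLA-B to 87.0% for TAPBP. These are values of single arrays with no error of their own, and RAB38 was lower on array 1 than on array 2. Whether the depth of silencing bears on the class I values was not tested.

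The differences inside each group were as large as those between the groups. NT array 1 exceeded NT array 2 in 9 of 9 members, by 0.30 (TAP2) to 0.71 (HLA-B) on the log2 scale, with a median of 0.49 against -0.004 over all genes. HLA-B was thus 1.63 times and HLA-C 1.58 times as high on NT array 1 as on NT array 2. In siRAB38 the order ran the other way by replicate number. Array 1 minus array 2 lay between -0.79 (TAP1) and -0.17 (TAPBP), with a median of -0.59 against 0.003 over all genes. Both orders together held for 9 of 9 members and for 23.8% of all genes. SiRAB38 array 1 was the lowest array in 9 of 9 members, against 24.0% of all genes, and siRAB38 array 2 lay above NT array 2 in 9 of 9, against 50.0%. The range over the arrays ran from 0.37 (TAPBP) to 1.20 (HLA-B), with a median of 0.80 against 0.31 over all genes.

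**Figure D3:**
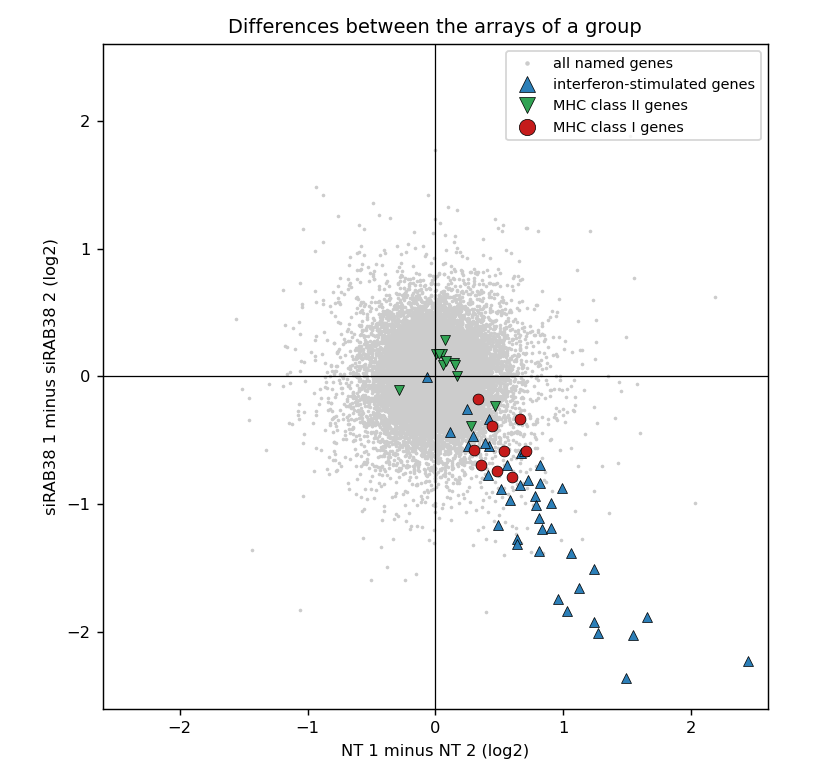
NT 1 minus NT 2 (x axis) against siRAB38 1 minus siRAB38 2 (y axis), both in log2, with 1 point per gene. The 9 class I genes and 39 of 40 interferon-stimulated genes lie in the lower right part, with NT 1 above NT 2 and siRAB38 1 below siRAB38 2, and 2 of the 12 class II genes do.

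The immunoproteasome, which interferons induce and which cuts peptides suited to class I, shared the orders within the groups in most of its genes but the whole class I order, with siRAB38 array 1 lowest and siRAB38 array 2 above NT array 2, in PSMB9 and PSME2 only. Of its 5 measured genes all lay below 0 (median log2 fold change -0.18), against 48.4% of all genes. Both orders within the groups held in 4 of 5, against 23.8% of all genes. PSMB8, a catalytic subunit, had log2 values 8.35 and 7.87 on the NT arrays and 7.49 and 7.80 on the siRAB38 arrays. Its groups did not overlap (log2 fold change -0.46 ± 0.20 SE, limma adjusted p = 0.72). With PSME1 it made 2 of 5 genes that lay lower without overlap, against 17.2% of all genes, and 0 lay higher, against 18.8%. PSMB9, whose promoter adjoins that of TAP1, had 8.04 and 7.51 on the NT arrays and 7.01 and 7.70 on the siRAB38 arrays, and its groups overlapped. PSME2, a subunit of the proteasome activator PA28, had a log2 fold change of -0.18 ± 0.15 (SE). The genes listed for the constitutive proteasome, which include the activator gene PSME3, had other orders. In 0 of their 4 genes did both orders hold, although all 4 fold changes lay below 0, with a median of -0.16. Of these 4 genes 2, PSMB7 and PSME3, also lay lower without overlap, and 0 lay higher. PSMB5, the subunit that PSMB8 replaces, had 8.63 and 8.36 on the NT arrays and 8.39 and 8.20 on the siRAB38 arrays. PSME3 (PA28γ) had a log2 fold change of -0.24 ± 0.12 (SE). PSMB6, which PSMB9 replaces, had -0.12 ± 0.14 (SE). No gene of either list passed an adjusted p of 0.05.

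Chaperones and trimming peptidases that complete the loading of class I varied little. Of 8 measured genes 3 were below 0 and 5 were above it. Their median log2 fold change was 0.02 and their median range over the arrays 0.21. Calreticulin (CALR), a chaperone of the peptide loading complex, had log2 values 10.74 and 10.76 on the NT arrays and 10.84 and 10.86 on the siRAB38 arrays. The siRAB38 arrays lay above the NT arrays in this gene, by a log2 fold change of 0.10 ± 0.10 (SE, limma adjusted p = 0.88). Such separation upward held in 2 of the 8 genes, against 18.8% of all genes, and downward in 0, against 17.2%. ERAP2, an aminopeptidase that trims peptides in the endoplasmic reticulum, had 7.07 and 6.74 on the NT arrays and 6.65 and 7.05 on the siRAB38 arrays, the array order of the class I genes with a smaller range. ERAP1, its partner, had 6.74 and 6.50 on the NT arrays and 6.53 and 6.88 on the siRAB38 arrays. TAPBPL, a tapasin relative, had 6.11 and 5.80 on the NT arrays and 6.01 and 5.88 on the siRAB38 arrays, an order of its own.

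Interferon-stimulated genes showed the array order of the class I genes with wider ranges. Of 40 measured genes 37 lay below 0, against 48.4% of all genes (median log2 fold change -0.31), and 39 had both orders within the groups, against 23.8%. Their median difference was 0.78 for NT array 1 minus array 2 and -0.98 for siRAB38 array 1 minus array 2. In 0 of 40 did the groups separate, where over all genes 17.2% lay lower and 18.8% higher without overlap, and none passed an adjusted p of 0.05. IFI27, a mitochondrial protein used as an interferon readout, had the widest range of the list. Its log2 values were 9.30 and 7.81 on the NT arrays and 5.61 and 7.97 on the siRAB38 arrays, a range of 3.69 (log2 fold change -1.76 ± 0.88 SE, limma adjusted p = 0.74). MX2, an antiviral GTPase, had 6.12 and 3.67 on the NT arrays and 3.07 and 5.30 on the siRAB38 arrays. IFITM1, a membrane protein that blocks viral entry, had 10.84 and 9.56 on the NT arrays and 8.18 and 10.19 on the siRAB38 arrays. The 9 class I genes thus had a median range of 0.80 and the 40 interferon-stimulated genes one of 1.24, with the same array at the bottom in 9 of 9 and in 37 of 40. The part of interferon signaling in the class I values was not tested.

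Among RNA sensors and interferon genes, the sensors RIGI and IFIH1 had the wide ranges of the interferon-stimulated genes, and the interferon genes differed among themselves. RIGI, a sensor of short double-stranded RNA, had log2 values 8.29 and 7.45 on the NT arrays and 6.87 and 8.25 on the siRAB38 arrays. IFIH1, the sensor of long double-stranded RNA, had 7.45 and 6.47 on the NT arrays and 6.07 and 7.35 on the siRAB38 arrays. Both had the array order of the class I genes. The interferon gene IFNB1 lay between 1.72 and 1.91 on all arrays and IFNL1 between 1.64 and 2.01. IFNL2, a type III interferon, had 3.36 and 3.23 on the NT arrays and 2.93 and 3.05 on the siRAB38 arrays. These values lay below the array medians and did not overlap (log2 fold change -0.30 ± 0.12 SE, limma adjusted p = 0.72). In this list 3 of 15 genes lay lower without overlap, against 17.2% of all genes, and 0 lay higher, against 18.8%. IFNL2 was the 1 gene with an unadjusted limma p under 0.05, which 6.85% of all genes had. IFNL3, a near-identical copy of IFNL2 whose signal may be shared with it, had 4.03 and 3.58 on the NT arrays and 4.39 and 3.96 on the siRAB38 arrays, above the array medians and overlapping (log2 fold change 0.37 ± 0.22 SE). In the list as a whole 11 of 15 genes lay below 0 (median log2 fold change -0.16), and none passed an adjusted p of 0.05. USP18, an interferon-induced brake on the type I receptor, had 9.07 and 7.92 on the NT arrays and 7.51 and 8.78 on the siRAB38 arrays. The 13 receptor and signaling genes measured, USP18 included, had a median range of 0.34 against 0.31 over all genes, with IFNAR1 between 7.41 and 7.54.

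**Figure D4:**
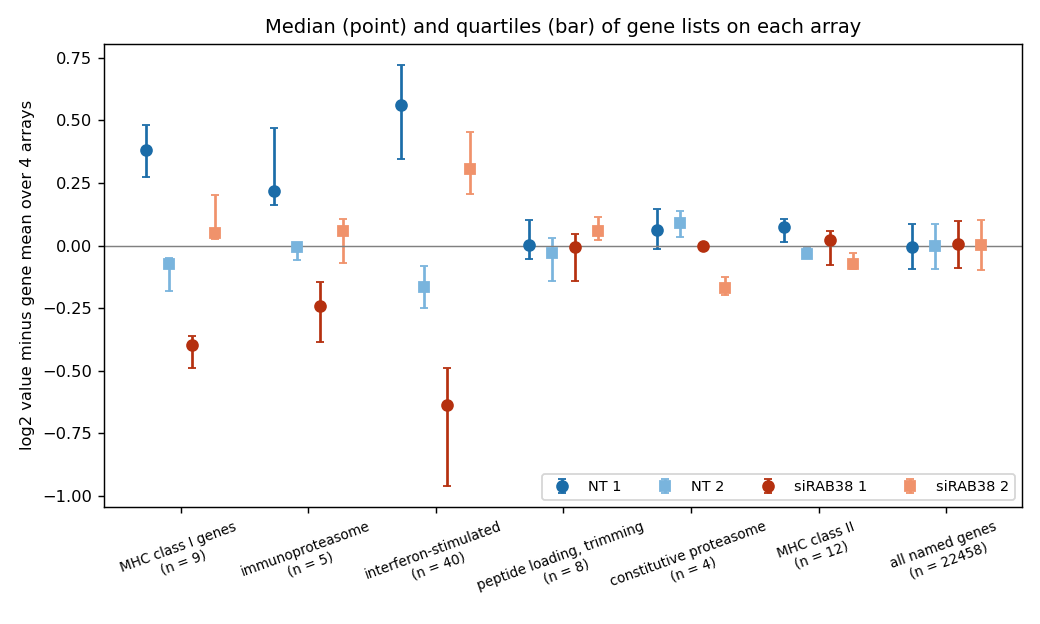
Log2 value minus the mean of each gene over the 4 arrays (y axis) for 7 groups of genes (x axis), as the median and quartiles on each array. The class I genes have medians of 0.38 and -0.08 on the NT arrays and -0.40 and 0.05 on the siRAB38 arrays, and all named genes lie at 0 within 0.01.

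Transcription factors of the class I promoters had smaller ranges, with a median of 0.27 over the arrays. Of 13 measured genes 8 lay below 0 (median log2 fold change -0.06), against 48.4% of all genes. Both orders held in 7, against 23.8%, and 6 were lowest on siRAB38 array 1, against 24.0%. NFYC, a subunit of the factor that binds the Y box, had log2 values 4.39 and 4.15 on the NT arrays and 3.70 and 3.89 on the siRAB38 arrays. Its groups did not overlap (log2 fold change -0.47 ± 0.14 SE, limma adjusted p = 0.72). In this list 3 of 13 genes lay lower without overlap, against 17.2% of all genes, and 1 lay higher, against 18.8%. NFYC was the 1 gene with an unadjusted limma p under 0.05, which 6.85% of all genes had. RFX5, which binds the X1 box, had 6.95 and 6.80 on the NT arrays and 6.68 and 6.70 on the siRAB38 arrays, also without overlap (log2 fold change -0.18 ± 0.11 SE). IRF1, an interferon-induced activator of class I genes, had 5.36 and 4.96 on the NT arrays and 4.98 and 5.12 on the siRAB38 arrays. EZH2, a polycomb methyltransferase known to repress class I genes in tumor cells, had a log2 fold change of -0.16 ± 0.10 (SE).

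MHC class II genes, which share the X and Y box factors with class I, followed the class I order in NT but mostly not in siRAB38. Of 12 measured genes, with cathepsin S and the invariant chain included, 11 had NT array 1 above NT array 2 (47.8% of all genes did), 3 had siRAB38 array 1 below array 2, and 2 had both orders (23.8% of all genes). Their median NT difference was 0.08 against 0.49 for the class I genes, and their median range was 0.18. HLA-DRA had log2 values 10.24 and 10.07 on the NT arrays and 10.11 and 10.11 on the siRAB38 arrays. CD74, the invariant chain, had 10.94 and 10.80 on the NT arrays and 10.87 and 10.77 on the siRAB38 arrays. CIITA, the class II counterpart of NLRC5, lay between 6.98 and 7.26. HLA-DQA1, a class II α chain, had 8.38 and 8.30 on the NT arrays and 8.07 and 7.79 on the siRAB38 arrays, without overlap (log2 fold change -0.41 ± 0.14 SE, limma adjusted p = 0.72). CTSS, the protease that degrades the invariant chain, had 5.42 and 4.95 on the NT arrays and 4.61 and 4.84 on the siRAB38 arrays, also without overlap. These were the 2 of 12 genes that lay lower without overlap, against 17.2% of all genes, and 0 lay higher, against 18.8%. The median log2 fold change of the list was -0.05, and no gene passed an adjusted p of 0.05.

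The genes outside the 9 whose pattern over the 4 arrays was most like theirs were found by the root mean square difference between a gene and the median of the members, each taken minus its own mean. WARS1, a tryptophanyl-tRNA synthetase that interferon-γ induces, was closest, with a difference of 0.02 and log2 values 8.36 and 7.87 on the NT arrays and 7.58 and 7.99 on the siRAB38 arrays. It was followed by MT1JP, PLAGL1, OR5M8, PSMB8-AS1 and NCCRP1, each with a difference of 0.03. PSMB8-AS1, the antisense transcript at the PSMB8 gene, had 4.93 and 4.44 on the NT arrays and 4.11 and 4.63 on the siRAB38 arrays. Of the 6 genes, MT1JP, PLAGL1, OR5M8 and NCCRP1 lay below the array medians on all arrays, between 1.39 and 3.45. A likeness over 4 arrays among 22458 genes is a description and carries no p. Among the members themselves HLA-E was nearest to the median pattern, with a difference of 0.03, and NLRC5 farthest, with 0.17.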

How the data were processed

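RNA was biotin-labelled by the authors (WT Plus reagents), who deposited RMA log2 values for 4 arrays. Per the submitters' processing notes, RMA came from affy 1.60.0 under R 3.5.1. The grouping of probes into rows and a genome build are not given in the sources used here. Of 23786 rows, 22458 had 1 gene symbol in the platform annotation and 1328 had none. Groups came from the titles. siRAB38 was compared with NT by limma 3.58.1 in R 4.3.3 (lmFit, eBayes without trend), with Benjamini-Hochberg adjustment over 22458 genes and a threshold of 0.05, and the fit was tested on simulated data. No test is given for the arrays in particular, so limma is a choice made here, with the t-test of the methods among the alternatives. Dim rows were kept. Correlations between arrays over all genes were 0.993 to 0.994, with no array a copy of another. The number of arrays limits the precision. Lists were written from general knowledge. The text names the members, RAB38 and, per list, up to 3 genes of smallest p and up to 3 of widest range, the 6 genes of most similar pattern, and markers. IFNB1, IFNL1, IFNAR1, CIITA, HLA-DRA, CD74, CXCL9, CXCL10, CXCL11, IDO1 and GBP5 were named after their values were seen. Members and lists were chosen with earlier results of these data known.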

Additional observations from a re-analysis of the deposited data

How the results depend on the processing

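Median centring, a further quantile normalization, leaving out the dimmest 30% of genes, testing all rows, a trended robust prior, array weights, the replicate block and the methods' t-test gave 72 fold changes of the 9 members. None passed an adjusted p of 0.05 (lowest 0.69), and 0 genes passed over all genes in any of these settings. None turned its direction, but only median centring and the further quantile normalization changed the fold changes at all. The other settings returned the fold changes already given and bear on the p-values alone. The replicate number was taken as a block in 1 fit, in which 0 genes passed, 1249 had an unadjusted p under 0.05 and the members' median was -0.29. Same-numbered arrays correlated at -0.05 in their deviations. With so few arrays this value cannot decide whether same-numbered arrays shared a culture or a batch, which the sample labels do not give. Leaving out 1 array at a time, the lone array being assumed to vary like the rest, turned 8 of 36 fold changes. Without NT array 1 the log2 fold change was 0.035 for HLA-C, 0.14 for TAP1, 0.051 for TAPBP and 0.18 for NLRC5, and without siRAB38 array 1 it was 0.059 for B2M, 0.23 for TAP1, 0.087 for TAP2 and 0.31 for NLRC5. The lowest values of these 6 genes were -0.63 for HLA-C and B2M, -0.56 for TAP1, -0.49 for TAP2, -0.28 for TAPBP and -0.43 for NLRC5. It stayed below 0 for HLA-B (-0.91 to -0.20), HLA-E (-0.56 to -0.11) and HLA-F (-0.78 to -0.19). Members below 0 ran from 5 to 9, and the median from -0.53 to -0.03. All 8 turns came without NT array 1 or without siRAB38 array 1, the highest and the lowest array of most members.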

Other observations

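Ligands and class I relatives read by natural killer cells went in several directions. Fold changes were below 0 in 8 of 14 measured genes and above it in 6 (median -0.02 on the log2 scale), and limma called none at an adjusted p of 0.05. ULBP3, a ligand of the activating receptor NKG2D, had log2 values 6.49 and 6.50 on the NT arrays and 6.23 and 6.01 on the siRAB38 arrays (log2 fold change -0.37 ± 0.12 SE, limma adjusted p = 0.72). ULBP2, a relative with the same receptor, had 4.44 and 3.92 on the NT arrays and 4.62 and 4.42 on the siRAB38 arrays, and its groups overlapped. FCGRT, the class I-like receptor that recycles IgG and albumin, had 4.21 and 4.29 on the NT arrays and 4.70 and 4.49 on the siRAB38 arrays (log2 fold change 0.35 ± 0.12 SE). HLA-G, a nonclassical heavy chain of the placenta, had 3.52 and 3.47 on the NT arrays and 3.03 and 3.33 on the siRAB38 arrays. These values were close to the array medians and did not overlap (log2 fold change -0.32 ± 0.14 SE, limma adjusted p = 0.72). In this list 3 of 14 genes lay lower without overlap, against 17.2% of all genes, and 3 lay higher, against 18.8%.

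Genes that interferon-γ is known to induce were mixed. Of 16 measured genes 6 lay below 0 and 10 above, where 48.4% of all genes lay below 0. NT array 1 above array 2 together with siRAB38 array 1 below array 2 held in 10 of 16, against 23.8% of all genes. CXCL9, CXCL10, CXCL11, IDO1 and GBP5 lay below the array medians on all arrays, between 1.21 and 2.25. Among these only CXCL10 had a fold change below 0. GBP1, an interferon-induced GTPase, had 7.41 and 6.74 on the NT arrays and 5.96 and 7.27 on the siRAB38 arrays, as in the class I genes. GBP2, its relative, had 5.36 and 5.32 on the NT arrays and 5.51 and 5.69 on the siRAB38 arrays. ICAM1, an adhesion molecule that NF-κB also induces, had 5.57 and 5.55 on the NT arrays and 5.995 and 5.82 on the siRAB38 arrays (log2 fold change 0.35 ± 0.12 SE, limma adjusted p = 0.72). Genes of class I trafficking and turnover varied little, with 9 of 17 below 0 and a median range over the arrays of 0.23. RAB11A, a GTPase of recycling endosomes, had a log2 fold change of -0.09 ± 0.10 (SE), and SYVN1, a ubiquitin ligase of the endoplasmic reticulum, had 0.07 ± 0.18 (SE).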
